A study of Mus musculus with 4 samples.

Results

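The JAK-STAT pathway was followed through 10 of the 30041 genes measured in LPS-stimulated B cells with and without IκB-ζ, the nuclear IκB protein encoded by Nfkbiz. The genes were chosen by symbol and comprised 4 STAT genes (Stat3, Stat5a, Stat5b and Stat6), 3 feedback inhibitor genes of the SOCS family (Socs1, Socs3 and Cish) and 3 cytokine receptor genes (Il4ra, Il21r and Il2ra). RNA sequencing was carried out on splenic B cells of C57BL/6 mice after 72 h of culture with LPS, with 2 control samples and 2 samples lacking IκB-ζ in B cells (cKO). Control mice were Nfkbiz fl/Δ and cKO mice were Nfkbiz fl/Δ Mb1 cre/+, so both groups carried 1 deleted Nfkbiz allele throughout the body and the cKO mice alone carried Cre, which the Cd79a (Mb1) promoter drives in the B cell lineage. Cells carrying CD43, CD4 or Ter-119 had been depleted before culture, and no IL-4 was added to the sequenced cultures. A label field named passage, with a range and no unit, is unexplained and was not read as the age of the mice, which no other source used here states. The number of mice behind a sample is not stated either, nor whether the 2 samples of a group came from separate mice, so that p-values measure only the spread between these samples. The value for each gene is an RNA-seq score, which behaved as the number of reads per exon base scaled to the depth of the library, a reading inferred from the files and not stated by the authors.

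Cytokines of the interleukin family bind receptor chains that carry Janus kinases (JAK), and these kinases phosphorylate STAT proteins, which then enter the nucleus as dimers and activate transcription. SOCS proteins and CIS, the product of Cish, are induced by STAT proteins and dampen the same receptors. In B cells, IL-4 acts mainly through STAT6 and IL-21 mainly through STAT3, both cytokines direct immunoglobulin class switching and differentiation, and IL-2 acts through STAT5A and STAT5B.

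In the NCBIM37 (mm9) annotation, 3 of the 4 STAT genes lie side by side on chromosome 11. Stat5b (chr11:100642045-100712038, minus strand) and Stat5a (chr11:100720665-100746483, plus strand) are 8626 bases apart, and the last exon of Stat5a overlaps that of Stat3 (chr11:100746412-100800854, minus strand) by 72 bases tail to tail. Il4ra (chr7:132695785-132722986) and Il21r (chr7:132746943-132777084), both on the plus strand, are separated by 23956 bases with no protein-coding gene between them. Stat6 lies on chromosome 10, Socs1 on 16, Socs3 on 11, Cish on 9 and Il2ra on 2. Stat5a and Stat5b are close paralogs, and of the 3851 windows of the 38-base read length in the longest Stat5a transcript, 745 also occur in the longest Stat5b transcript, the longest shared run being 324 bases. The following exons, Stat5a exon 7 (chr11:100735317-100735447, plus strand) and Stat5b exon 6 (chr11:100659905-100660035, minus strand), are shown because a read from either can be assigned to both genes. They are 131 bases long and the capital marks the 1 base that differs.
Stat5a exon 7: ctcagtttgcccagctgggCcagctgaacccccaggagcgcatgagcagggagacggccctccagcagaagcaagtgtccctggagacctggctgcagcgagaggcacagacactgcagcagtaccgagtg
Stat5b exon 6: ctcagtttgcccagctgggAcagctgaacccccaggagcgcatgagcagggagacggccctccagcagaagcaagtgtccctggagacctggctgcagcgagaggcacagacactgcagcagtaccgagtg
In all, 20.3% of the Stat5a windows and 14.4% of the Stat5b windows recur in a protein-coding transcript of another gene. The scores of these paralogs are thus uncertain to the extent that the counting split or dropped such reads. For the other members the share was at most 1.52%, but noncoding transcripts, such as 2 that overlap the exons of Cish, were not searched.

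STAT dimers bind the palindrome TTCNNNGAA, and the sequences around the transcription start were searched for it because Socs3 and Cish are well-known STAT targets. All 10 members had at least 1 entry, 12 in all, among 32851 mouse promoters from RefSeq (GRCm38.p6, 250 bases before to 50 after the start). The motif, the same on both strands, occurred in the promoters of Cish and Socs3 and in 8.30% of all promoters, and the same half-sites 4 bases apart, the spacing that STAT6 prefers, occurred in no member and in 6.95% of all. Cish (chr9:107296654-107296683, plus strand) holds 2 motifs that begin at the annotated start and 11 bases after it, and Socs3 (chr11:117969487-117969545, minus strand) holds 1 that begins 154 bases before it. Capitals mark the motif.
Cish: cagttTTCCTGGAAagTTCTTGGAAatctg
Socs3: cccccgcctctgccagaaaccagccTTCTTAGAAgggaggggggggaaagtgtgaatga
The NF-κB consensus, searched on both strands because IκB-ζ acts with NF-κB proteins, occurred in 5.80% of all promoters and among the members in those of Il2ra (chr2:11642566-11642625, plus strand) and Il4ra (chr7:125552281-125552310, plus strand). The first lies 201 bases before the start and the second 20 bases after it, read on the opposite strand, and neither overlaps a TTCNNNGAA motif.
Il2ra: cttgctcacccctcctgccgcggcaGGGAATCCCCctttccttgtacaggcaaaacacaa
Il4ra: ccttctcgcaGGAAAGCCCCgcgcggcgcg
These are matches of letters and no binding was measured.

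From the smallest steps between scores, 17500000 to 19900000 reads were inferred per library. Nfkbiz itself scored 0.0241 and 0.0226 in the control samples against 0.0127 and 0.0116 in the cKO samples. Its log2 fold change was -0.94 ± 0.0956 (SE, n = 2 per group, adjusted p = 0.0282 by limma). Of 9 B cell marker genes, all were above 0 in every library, with a summed score of 2.50 and 2.80 in control and 2.42 and 2.40 in cKO samples, with both cKO samples below both controls for 6 of the 9 and above for 2, and only Cd79a, whose promoter drives Cre, was called (log2 fold change -0.78, adjusted p = 0.0294). Of 9727 genes that reached a score of 0.005 in some sample, 122 were called lower in cKO (1.25%) and 79 higher (0.812%) at an adjusted p under 0.05.

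The members fell into 3 ranges of expression. In control samples Il21r had the highest score, 0.0978 ± 0.00292 (SD, n = 2), which exceeded that of 91.2% of the genes tested. Stat3 followed at 0.0668 ± 0.000502 and Stat6 at 0.0525 ± 0.00559. Il4ra (0.0279), Stat5a (0.0211), Stat5b (0.0184) and Il2ra (0.0163) lay near the middle of the tested genes, and their ranges did not overlap one another in the control samples. Socs3 (0.00332) and Socs1 (0.00288), whose control ranges overlapped, and Cish (0.000745) stayed below 0.005 in every sample. The score of Il21r was thus 131-fold that of Cish in control samples and 86.2-fold in cKO samples.

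**Figure D1:**
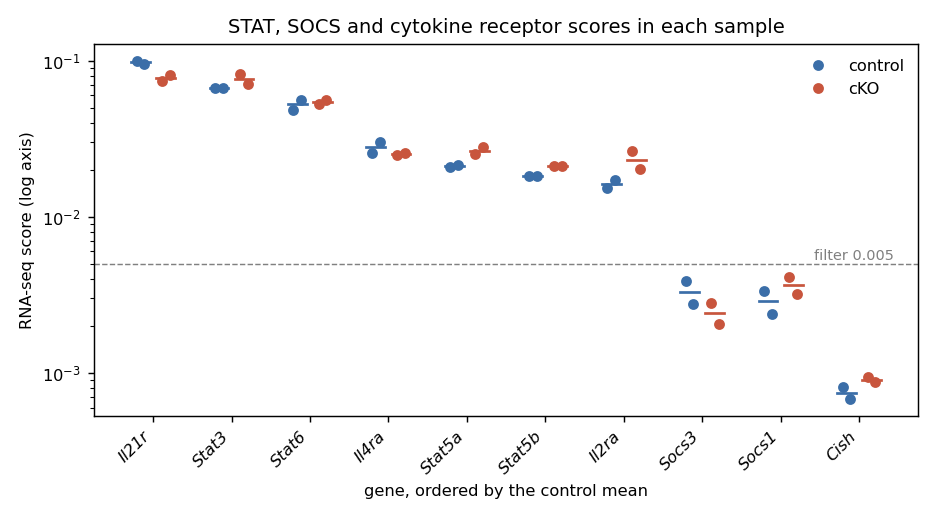
RNA-seq score (log axis) of the 10 genes in each of 2 control and 2 cKO samples, with a bar at the mean of each group and a dashed line at the filter of 0.005. The 3 SOCS family genes lie under the line in all samples, and both cKO points lie below both control points for Il21r alone.

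In cKO samples the order was closer. Il21r (0.0780 ± 0.00474, SD, n = 2) and Stat3 (0.0768 ± 0.00827) overlapped, as did each neighbouring pair among Stat5a (0.0266), Il4ra (0.0254), Il2ra (0.0233) and Stat5b (0.0212). Stat6, at 0.0546 ± 0.00196, lay between these groups in both genotypes.

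None of the 10 members passed an adjusted p of 0.05. Of the 10, 7 passed the filter, each in every sample, and of these 0 were called lower and 0 higher, beside 1.25% and 0.812% of all genes. At an unadjusted p under 0.05 by limma, 4 of the 7 (Stat5a, Stat5b, Il21r and Il2ra) stood out, against 22.3% of all genes. Both cKO samples lay above both control samples for 4 of the 7 (28.1% of all genes) and below for 1 of the 7 (30.1% of all genes). The median log2 fold change (cKO minus control) of the 7 was 0.20, beside -0.01 over all genes tested. With 2 samples per group an exact two-sided permutation test of a single gene cannot go below p = 0.33.

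Il21r, which encodes the specific chain of the IL-21 receptor, was the one member with lower scores in both cKO samples. Its scores were 0.0999 and 0.0957 in control and 0.0747 and 0.0814 in cKO samples. The groups did not overlap, and the control samples differed from each other by less than the distance to the nearer cKO sample. The log2 fold change was -0.33 ± 0.0859 (SE), with a 95% interval from -0.54 to -0.11, an unadjusted p of 0.00945 and an adjusted p of 0.122 by limma.

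Il2ra, the α chain (CD25) that raises the affinity of the IL-2 receptor, had the largest difference among the 7 members past the filter. It scored 0.0152 and 0.0173 in control and 0.0263 and 0.0202 in cKO samples. All cKO values were higher, but the cKO samples also stood further apart than the control samples. The mean cKO score was 1.43-fold that of control, with a log2 fold change of 0.50 ± 0.149 (SE, 95% interval 0.14 to 0.87, adjusted p = 0.143 by limma), and without cKO sample 1 the log2 fold change was 0.31. CD25 is also a marker of activated and regulatory T cells. Of 12 T cell markers, 6 were higher in both cKO samples than in both controls and 2 were lower in both, with a summed score of 0.0449 and 0.0568 in control and 0.0834 and 0.0778 in cKO samples. Foxp3, the factor that defines regulatory T cells, was between 0.00516 and 0.00596 in all 4 libraries without separation of the groups. Cd3e, part of the T cell receptor complex, was at 0 and 4e-05 in control and 7e-05 and 0.0002 in cKO samples, and the part of these markers in the Il2ra difference was not tested.

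Il4ra, the chain shared by the IL-4 and IL-13 receptors, did not separate the genotypes. Its scores of 0.0256 and 0.0303 in control samples enclosed 1 of the cKO scores of 0.0250 and 0.0258. The log2 fold change was -0.13, with a 95% interval from -0.40 to 0.13 (adjusted p = 0.490 by limma), and it was -0.26 without control sample 1 and -0.01 without control sample 2. The ratio of Il21r to its chromosomal neighbour Il4ra was 3.90 and 3.16 in control and 2.99 and 3.16 in cKO samples, which touched at 3.16.

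The 4 STAT genes all had a log2 fold change above 0, and 3 of them had both cKO samples above both controls. Stat5a, a mediator of IL-2 family signals, scored 0.0208 and 0.0214 in control and 0.0253 and 0.0279 in cKO samples. Its groups did not overlap, and the log2 fold change was 0.33 ± 0.0912 (SE, 95% interval 0.10 to 0.55, adjusted p = 0.130 by limma). Its paralog Stat5b scored 0.0184 and 0.0183 in control and 0.0211 and 0.0213 in cKO samples. Replicates of Stat5b were the closest of any member in both groups, and the log2 fold change was 0.21 ± 0.0816 (95% interval 0.01 to 0.41, adjusted p = 0.216). The ratio of Stat5a to Stat5b was 1.13 and 1.17 in control and 1.20 and 1.31 in cKO samples, values that rest partly on the shared exons given above.

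Stat3, the main transducer of IL-6, IL-10 and IL-21, scored 0.0665 and 0.0672 in control and 0.0827 and 0.0710 in cKO samples. The cKO values were higher but lay further apart than the distance from the control samples to the nearer of them, and the log2 fold change was 0.20 with a 95% interval from -0.05 to 0.44 (adjusted p = 0.304 by limma). It was 0.09 without cKO sample 1 and 0.31 without cKO sample 2. Stat6 scored 0.0485 and 0.0565 in control and 0.0532 and 0.0560 in cKO samples. Both cKO values lay between the controls, and the log2 fold change was 0.06 with an interval from -0.19 to 0.31, which became -0.05 without control sample 1. The libraries did not mark strand, so that reads from the 72 bases where Stat5a and Stat3 overlap, and from the 79 exon bases of Stat6 that overlap Nab2, cannot be told apart.

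**Figure D2:**
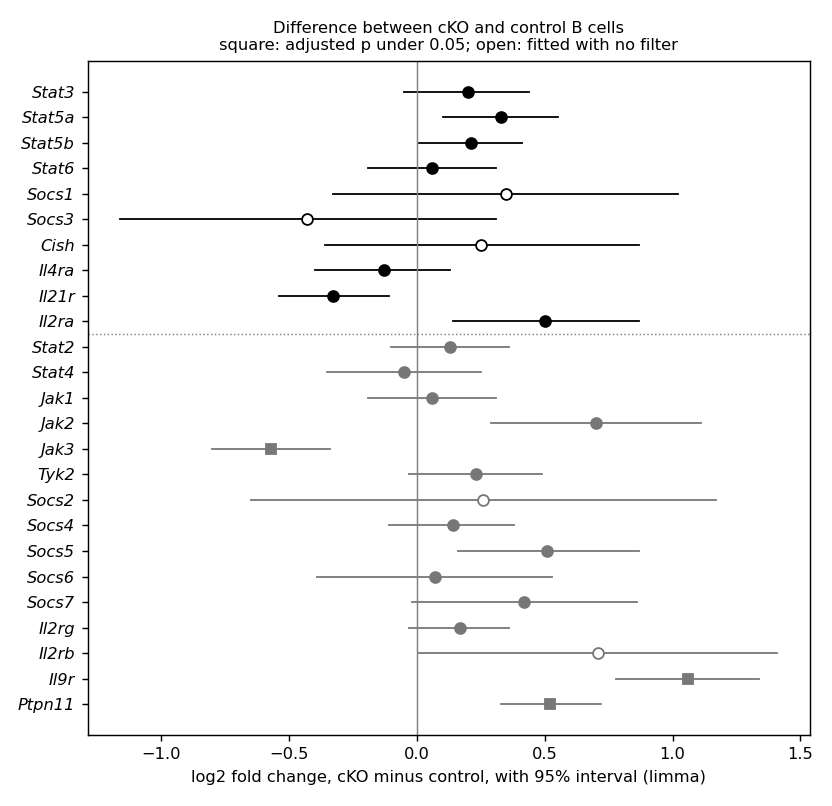
Log2 fold change (cKO minus control) with its 95% interval from limma for the 10 members, above the dotted line, and 15 genes that act with them, below it. Squares mark an adjusted p under 0.05 and open points genes under the filter; the intervals of Stat5a, Stat5b and Il2ra lie above 0 and that of Il21r below 0, and no member is a square.

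The 3 SOCS family genes were close to the limit of these libraries. Socs1, which blocks JAK activity, scored 0.00337 and 0.00240 in control and 0.00413 and 0.00321 in cKO samples, from about 54 to 100 inferred reads. Its groups overlapped, with a log2 fold change of 0.35 and a 95% interval from -0.33 to 1.02 in a fit with no filter. Socs3, which acts on the IL-6 receptor family, scored 0.00388 and 0.00275 in control and 0.00281 and 0.00206 in cKO samples, from about 92 to 177 inferred reads. It was the one SOCS member with a log2 fold change below 0 (-0.43, interval -1.16 to 0.31), and its groups also overlapped. Cish, an inhibitor of STAT5 signals, scored 0.000810 and 0.000680 in control and 0.000940 and 0.000870 in cKO samples. Its cKO values were just above the controls on about 36 to 53 inferred reads per library. The log2 fold change of Cish was 0.25, with an interval from -0.36 to 0.87. Of its 2850 exon bases, at most 103 overlap the antisense transcript Gm17040 and at most 479 the antisense transcript Gm17041. Reads from such bases cannot be told apart, as the libraries did not mark strand. In the fit with no filter, limma called 0 of 21582 genes at an adjusted p under 0.05 (0.0%), and 3203 had an unadjusted p under 0.05. As that fit called no gene of any size, the lack of a call is no measure of the differences in Socs1, Socs3 and Cish. The adjusted p was 0.574 for Socs1, 0.518 for Socs3 and 0.615 for Cish. Fits without single samples gave log2 fold changes of 0.11 to 0.58 for Socs1, -0.67 to -0.18 for Socs3 and 0.14 to 0.36 for Cish, the end nearest to 0 being reached without control sample 2 for Socs1 and Cish and without control sample 1 for Socs3.

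Among the kinases that the receptors share, Jak3 was called lower in cKO. JAK3 binds the common γ chain, and Jak3 scored 0.0341 and 0.0376 in control and 0.0232 and 0.0249 in cKO samples. The groups were clearly apart, and the log2 fold change was -0.57 ± 0.0938 (SE, adjusted p = 0.0494 by limma), a value next to the threshold that became 0.0564 with quantile normalization. Jak1, the partner of JAK3 on IL-2 family receptors, scored 0.0893 and 0.101 in control and 0.104 and 0.0946 in cKO samples. These overlapped, with a log2 fold change of 0.06 that turned to -0.03 without control sample 1 and to -0.01 without cKO sample 1. The ratio of Jak1 to Jak3 was 2.62 and 2.70 in control and 4.48 and 3.80 in cKO samples. Jak2, used by receptors such as those of IL-3, IL-5 and IFN-γ, scored 0.0143 and 0.0193 in control and 0.0297 and 0.0247 in cKO samples. All cKO values of Jak2 were higher, with a log2 fold change of 0.70 ± 0.168 that did not pass (adjusted p = 0.106 by limma). It was 0.49 without control sample 1 and 0.91 without control sample 2. Tyk2, which serves type I interferon receptors, had a log2 fold change of 0.23 (adjusted p = 0.260).

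Of 8 other receptor genes listed for the common γ family and related chains, 3 passed the filter and Il9r alone was called, higher in cKO. The list counted Il13ra1, Il13ra2 and Crlf2 as related chains. Crlf2 passed the filter, at 0.0161 and 0.0172 in control and 0.0116 and 0.0132 in cKO samples. The log2 fold change of Crlf2 was -0.42 (adjusted p = 0.113 by limma). Il9r, the specific chain of the IL-9 receptor, which signals through JAK1 and JAK3, scored 0.0133 and 0.0110 in control and 0.0254 and 0.0252 in cKO samples. The cKO mean was 2.08-fold the control mean, with a log2 fold change of 1.06 ± 0.114 (SE, adjusted p = 0.0294 by limma). Il2rg, the common γ chain itself, had the highest score of the receptor chains named here, at 0.177 and 0.190 in control and 0.207 and 0.205 in cKO samples. Its log2 fold change was 0.17 (adjusted p = 0.283), and its exons share 728 bases with the annotated gene Gm20489 on the same strand. The ratio of Il2rg to Il21r was 1.77 and 1.99 in control and 2.77 and 2.52 in cKO samples. Il2rb, the β chain that IL-2 needs to signal, stayed below the filter, at 0.00202 and 0.00137 in control and 0.00257 and 0.00302 in cKO samples, so that Il2ra was from 6.68-fold to 12.6-fold higher than Il2rb per exon base in the 4 libraries.

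**Figure D3:**
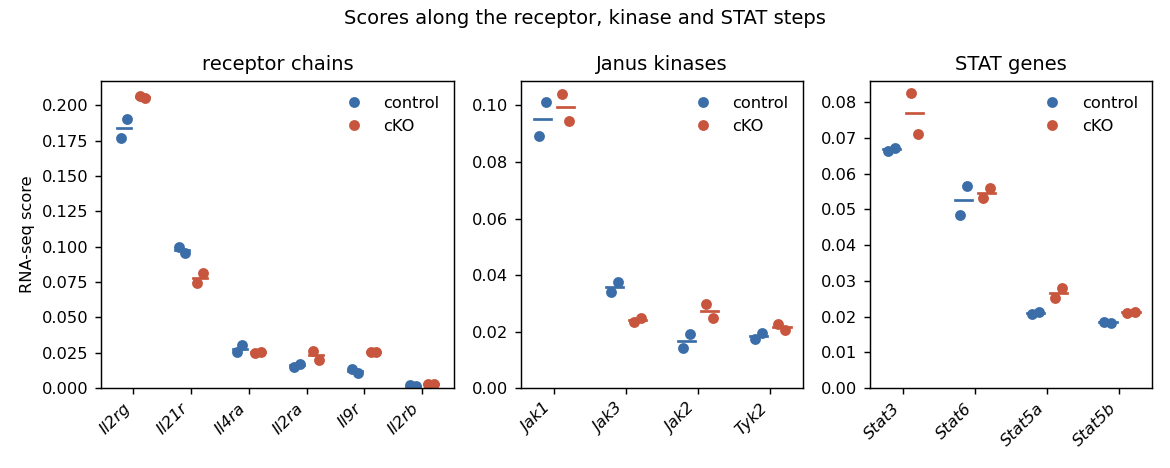
RNA-seq score (linear axes from 0, each panel with its own scale) of receptor chains, Janus kinases and STAT genes in each sample, with bars at group means. The control points lie above the cKO points for Il21r and Jak3, and below them for Il2rg, Il2ra, Il9r, Il2rb, Jak2, Tyk2, Stat3, Stat5a and Stat5b.

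Stat2, Stat4 and the SOCS genes outside the members held no call. Stat2 and Stat4 both passed the filter, with log2 fold changes of 0.13 and -0.05 and adjusted p of 0.448 and 0.825 by limma, and the sign of Stat4 changed without cKO sample 2 (0.10). Of the 5 other SOCS genes, 4 passed the filter with a median log2 fold change of 0.28. Socs5 scored 0.00654 and 0.00796 in control and 0.0110 and 0.00969 in cKO samples (log2 fold change 0.51, adjusted p = 0.131 by limma). Socs7 had a log2 fold change of 0.42 (adjusted p = 0.236 by limma), which was 0.18 without control sample 1 and 0.67 without control sample 2. Socs4 (0.14) and Socs6 (0.07) differed less, and Socs2, below the filter, had a log2 fold change of 0.26. The sign of Socs2 and of Socs6 turned in at least 1 fit without a sample. Of 11 other negative regulators, which comprised PIAS proteins, phosphatases and adaptors, all passed the filter and Ptpn11 alone was called, with a list median of 0.06. Ptpn11, which encodes the phosphatase SHP-2, scored 0.0268 and 0.0266 in control and 0.0389 and 0.0380 in cKO samples, and its log2 fold change was 0.52 ± 0.0800 (SE, adjusted p = 0.0428).

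Lists of known targets of the STAT members were read beside the 1.25% of all genes called lower and 0.812% called higher. Of 9 STAT5 targets, 6 passed the filter and 0 were called, with a median log2 fold change of 0.16. The furthest from 0 were Ccnd2, a cyclin of the G1 phase (-0.78, adjusted p = 0.146 by limma), and Bcl2, a survival factor (-0.41, adjusted p = 0.114). Of 11 STAT3 targets, 10 passed the filter and Batf alone was called lower, with a list median of -0.01. Batf, an AP-1 factor needed for class switching, scored 0.0608 and 0.0561 in control and 0.0297 and 0.0303 in cKO samples (log2 fold change -0.96 ± 0.0858, SE, adjusted p = 0.0215). Of 6 STAT6 targets, 5 passed and Fcer2a alone was called, with a list median of 0.11. Ccl22 of this list, not called, went the other way and lay further from 0 (1.44, adjusted p = 0.0912). It scored 0.0800 and 0.0993 in control and 0.172 and 0.340 in cKO samples. Fcer2a encodes CD23, the low-affinity IgE receptor that IL-4 induces on B cells, and scored 0.300 and 0.313 in control and 0.161 and 0.1995 in cKO samples (log2 fold change -0.78 ± 0.118, adjusted p = 0.0428).

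**Figure D4:**
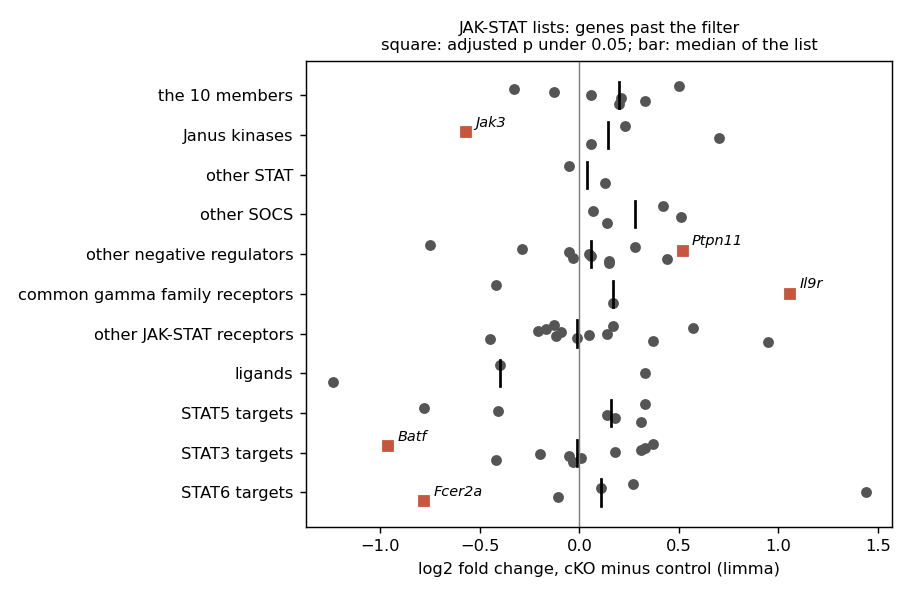
Log2 fold change (cKO minus control) of each gene past the filter in the 10 members and 10 lists of the JAK-STAT pathway, with a bar at each median and a named square at an adjusted p under 0.05. The called genes are Jak3, Batf and Fcer2a on the lower side and Ptpn11 and Il9r on the higher side, and the medians of the lists lie between -0.40 and 0.28.

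With either cKO sample left out, limma called 0 genes of 9727, so none of the calls on single genes could be kept there. For Nfkbiz, Jak3, Ptpn11, Il9r, Batf, Fcer2a, Cd79a and Prdm1, the adjusted p by limma was 0.130 to 0.285 without cKO sample 1 and 0.0669 to 0.146 without cKO sample 2. The log2 fold changes without cKO sample 1 and without cKO sample 2 were 1.05 and 1.06 for Il9r, -0.94 and -0.97 for Batf, 0.51 and 0.54 for Ptpn11, -0.52 and -0.62 for Jak3 and -0.62 and -0.93 for Fcer2a. The adjusted p was 0.161 to 0.219 with no filter, where 0 genes were called, and without the variance trend 7 of the 8 did not pass (0.05 to 0.0859). In addition, without control sample 1 the adjusted p was 0.0526 for Ptpn11 and 0.0848 for Prdm1, and with quantile normalization it was 0.0525 for Prdm1.

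The summed scores of T cell, NK cell and myeloid markers were each higher in both cKO samples than in both controls, and their part in the differences above was not tested. Of the T cell sum given above, Lck, a T cell kinase that some B cells also express, made up 0.0318 to 0.0690, and from 0 to 2 of the 12 markers were at 0 in a library. Of the 2 T cell markers tested, Lck and Foxp3, 0 were called (log2 fold changes 0.83 and 0.03). Lck passed with the filter above 0.05 (adjusted p = 0.0426 by limma). Its log2 fold change was 0.60 without control sample 1 and 1.06 without control sample 2. The 8 NK cell markers summed to 0.00126 to 0.00143 in control and 0.00199 to 0.00273 in cKO samples, with 0 past the filter. Of these markers, 1 was higher and 2 were lower in both cKO samples. The 1 higher was Nkg7, which made up 0.000410 and 0.000330 of the sum in control and 0.00175 and 0.00124 in cKO samples. The 15 myeloid markers summed to 0.213 and 0.181 in control and 0.224 and 0.228 in cKO samples, with 4 past the filter and 0 called, 5 higher and 1 lower in both cKO samples. Of that sum, Itgam made up 0.135 to 0.158 and Ly6c2 0.00953 to 0.0347, and neither gene separated the groups. Lyz2, lysozyme of myeloid cells, scored 0.0205 and 0.0112 in control and 0.0485 and 0.0329 in cKO samples (log2 fold change 1.39, adjusted p = 0.0961 by limma), and Cd68 had a log2 fold change of 0.75 (adjusted p = 0.225). Without control sample 1 the log2 fold change was 1.82 for Lyz2 and 1.22 for Cd68. Without control sample 2 it was 0.96 for Lyz2 and 0.29 for Cd68. Of 7 plasma cell markers, 6 were tested and Prdm1, the master regulator of plasma cells, was called lower (-2.82, adjusted p = 0.0429), while the summed score was 0.340 and 0.291 in control and 0.331 and 0.277 in cKO samples. Of the 7, 3 were higher in both cKO samples and 2 lower. Slamf7 (log2 fold change 0.83, adjusted p = 0.0793 by limma) and Sdc1, which encodes CD138 (0.77, adjusted p = 0.116), were among the former. Igj, at 0.134 and 0.0783 in control and 0.0552 and 0.0572 in cKO samples (-0.86, adjusted p = 0.130), was among the latter. Slamf7, Sdc1 and Igj were named after their values were seen. By flow cytometry, a measure of protein, the paper reported lower CD138 on cKO B cells after LPS. Of 8 erythroid and platelet markers, only Hbb-b1 passed the filter, with 0.00657 and 0.00113 in control and 0.000860 and 0.000700 in cKO samples (log2 fold change -1.71, adjusted p = 0.326). Its log2 fold change was -0.49 without control sample 1 and -2.93 without control sample 2. Of the 8 markers, 4, Hba-a1 and Hba-a2 among them, were higher in both cKO samples. In bulk samples, fewer cells of a type and less RNA per cell cannot be told apart.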

How the data were processed

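RNA of 4 cultures (2 control, 2 cKO) was sequenced as 38-base reads from poly(A) libraries that do not mark strand. Per the labels and the study's methods, the authors aligned reads to mm9 with TopHat2 (version 2.0 in the submitters' processing notes) and removed rRNA and tRNA reads. The authors deposited 1 RNA-seq score per gene and sample, and how reads became a score is not given in the sources used here. The LPS unit is given differently by the labels and the methods, so no dose is printed. Depth was inferred from the steps between low scores, of which 75.4 to 81.9% lay within 0.2 of a whole step, and inferred reads are approximate.

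Tests used limma 3.58.1 (R 4.3.3, empirical Bayes with a variance trend) on log2(score + 0.0001) on the 9727 genes that reached 0.005 in some sample, with Benjamini-Hochberg adjustment. Fold changes are on that scale and understate changes of low genes. Socs1, Socs3 and Cish were read from a fit over the 21582 genes above 0. The fit was tested on simulated data. The members and all lists were chosen with earlier results of these data known, so their counts are descriptions. Named genes were the members, Nfkbiz, further JAK, STAT and SOCS genes, Il2rg and Il2rb, and in each further list the called genes or, with none, the 2 furthest from 0. Crlf2, Ccl22, some ligands and some marker genes were named outside this rule, after their values were seen. A gene and a list covered by this rule are not reported here. No likeness of pattern was computed, since 4 samples are too few for a correlation. Positions came from the NCBIM37 annotation and promoters from RefSeq (GRCm38.p6). Alternatives were other pseudocounts (0.001), filters (above 0.05, or none), scaling to equal medians, quantile normalization, no variance trend, replicate blocks and leaving out each sample.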

Additional observations from a re-analysis of the deposited data

How the results depend on the processing

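Over 110 values of the 10 members under alternatives, 109 kept their sign and their side of the threshold, and 0 members were called lower or higher under any alternative run. The other was Stat6, whose log2 fold change ranged from -0.05 to 0.17 with a sample left out. With either cKO sample left out, or with no filter, limma called no gene of the whole table. Members could not have changed sides in those fits, so their values there do not speak for stability. Socs1, Socs3 and Cish were read only from fits with no filter. The lowest adjusted p of a member by limma in any alternative was 0.0551, for Il2ra.

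Against 122 genes lower and 79 higher, limma called 22 and 11 without the variance trend, 88 and 35 with the filter above 0.05, and 0 and 0 with no filter, where more genes near the floor are tested. Leaving out a sample gave from 0 to 391 lower (391 without control 2, 0 without either cKO sample) and from 0 to 439 higher, the lone sample being assumed to vary like the others. The replicate block gave 180 and 177, and the crossed replicate block, added after seeing the data, gave 230 and 212. Deviations of same-numbered samples correlated at -0.145 (Pearson) and -0.291 (Spearman) across genes, so same-numbered samples did not deviate together. Whether they were handled as pairs is not stated and cannot be told from 2 samples per group. With the replicate block, Ptpn11 had an adjusted p of 0.0611, and Il6ra (0.0305), Il5ra (0.0435), Lck (0.0228) and Lyz2 (0.00124) passed.

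Among 31 other named genes, 346 values gave 283 on the same side, 36 weaker, 20 stronger and 7 of opposite sign. The last were, with a sample left out, Stat4 (-0.20 to 0.10), Jak1 (-0.03 to 0.15), Socs2 (-0.08 to 0.60), Socs6 (-0.09 to 0.22) and Foxp3 (-0.07 to 0.14). The cause was not tested. Socs1, Socs3 and Cish rested on about 36 to 177 inferred reads per library.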

Other observations

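Receptors outside the list of the common γ family and related chains were also examined, as were ligands of both groups of receptors. Of 30 other receptor genes that signal through JAK and STAT proteins, 2 were listed at 0 in all libraries, 13 passed the filter and 0 were called, with a median log2 fold change (cKO minus control) of -0.01. The furthest from 0 were Il6ra, the IL-6 receptor chain, at 0.00690 and 0.0106 in control and 0.0183 and 0.0150 in cKO samples (log2 fold change 0.95, adjusted p = 0.100 by limma), and Il5ra, the IL-5 receptor chain, at 0.0116 and 0.0126 in control and 0.0168 and 0.0193 in cKO samples (0.57, adjusted p = 0.0745). The log2 fold change of Il6ra was 0.64 without control sample 1 and 1.25 without control sample 2.

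Of 24 ligand genes, those of the common γ family among them, 7 were listed at 0 in all libraries, 3 passed the filter and 0 were called. Il2, Il4 and Il21, ligands of the member receptors, were on this list and stayed below the filter. Il10, the anti-inflammatory cytokine of activated B cells, scored 0.00622 and 0.00357 in control and 0.00210 and 0.00178 in cKO samples (log2 fold change -1.24, adjusted p = 0.132 by limma), and Il12a had a log2 fold change of -0.40 (adjusted p = 0.114). The log2 fold change of Il10 was -0.85 without control sample 1 and -1.64 without control sample 2.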
